A study of Mus musculus with 2 samples.

Results

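Kctd12, Cck and Mpped2 were the genes described here, 3 of the 20211 gene symbols measured by RNA sequencing in cultured pericytes (PCs, the perivascular cells that wrap blood vessels) of the mouse aorta. They were chosen by their measured RPKM, a read count scaled to the length of the gene and the depth of the library: among the 6518 genes with a mean of at least 5 RPKM, they came close to an on or off difference between the WT and the Kai1-/- library. All 3 were found in both libraries, and all 3 passed that minimum. The difference between the libraries is therefore what selected them, and their ratios below are a description with no test.

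The study compared PCs of WT mice with PCs of mice that lacked Kai1, the tetraspanin membrane protein also called CD82 and encoded by Cd82. Both libraries came from aorta of the C57BL/6 background, and the labels give DMEM medium with 10% FBS for both cultures. The methods state another serum content for these cells, and they describe adult mice of either sex without tying them to these cultures. The number of animals behind each culture and the design of the Kai1-/- allele are not given in the sources used here. There was 1 library per genotype, so no value below has a replicate check, and genotype cannot be told apart from differences of animal, culture or library preparation.

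Kctd12 encodes a cytoplasmic protein with a tetramerization domain of the potassium channel type, and it is best known as an auxiliary subunit that speeds the desensitization of GABA-B receptors in neurons. Cck encodes the precursor of cholecystokinin, a peptide made by endocrine cells of the upper intestine, where it drives gallbladder contraction and pancreatic secretion, and by many neurons. The precursor is sulfated, cut and amidated in the secretory pathway before release. Mpped2 encodes a metallophosphoesterase, an enzyme of a fold that holds metal ions and cleaves phosphate esters, with activity on cyclic nucleotides in vitro. It is known mainly from the developing nervous system.

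The stretches just upstream of the annotated starts are shown because the first 2 genes were low and the third was high in the same library. Each run is the 250 bases before a RefSeq start (table of build GRCm38.p6), written on the gene's strand, and each matched the chromosome of build NCBI37 (mm9), the build of the study, exactly once. The Kctd12 window lies at chr14:103381855-103382104 on the minus strand, the Cck window at chr9:121404813-121405062 on the minus strand and the Mpped2 window, the first of 3 RefSeq starts, at chr2:106533088-106533337 on the plus strand. Capitals mark the GC box GGGCGG on either strand, the E-box CACGTG and the run GCGTCAGC, which Kctd12 and Cck share.
Kctd12: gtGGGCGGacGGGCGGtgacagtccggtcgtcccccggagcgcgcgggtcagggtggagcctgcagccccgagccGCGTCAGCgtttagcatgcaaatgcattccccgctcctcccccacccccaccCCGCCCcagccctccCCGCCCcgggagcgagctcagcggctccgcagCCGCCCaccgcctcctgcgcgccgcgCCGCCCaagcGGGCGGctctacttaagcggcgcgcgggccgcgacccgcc
Cck: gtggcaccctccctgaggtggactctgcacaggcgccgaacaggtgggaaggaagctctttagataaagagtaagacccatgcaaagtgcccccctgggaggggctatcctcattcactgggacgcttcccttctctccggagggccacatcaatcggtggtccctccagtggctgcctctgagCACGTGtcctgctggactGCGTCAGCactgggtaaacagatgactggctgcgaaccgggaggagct
Mpped2: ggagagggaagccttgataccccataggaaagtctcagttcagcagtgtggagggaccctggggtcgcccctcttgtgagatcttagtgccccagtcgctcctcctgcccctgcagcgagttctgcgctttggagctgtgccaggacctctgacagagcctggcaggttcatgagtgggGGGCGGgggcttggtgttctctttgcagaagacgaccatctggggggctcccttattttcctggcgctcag

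The 3 windows differed in base composition. Kctd12 had 77.6% G and C and 36 CpG pairs, and only 2.14% of 32851 RefSeq promoter windows were richer in G and C. Cck had 60.0% and 9 CpG pairs and the first Mpped2 window 60.4% and 7, against a median of 52.4% over all windows. The other Mpped2 starts had 73.6% G and C with 25 CpG pairs and 44.8% with 8.

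Letter patterns of known elements were searched on both strands. GGGCGG stood 7 times in the Kctd12 window and once in each Mpped2 window, and it was not found in the Cck window (32.7% of all windows hold it). CACGTG stood in the Cck window alone of the 5, with its first base at -66, where -1 is the base before the start (6.02% of all windows). The cAMP response element TGACGTCA (1.55%), the TATA box TATAAA (12.4%), CCAAT (33.8%) and the AP-1 site TGANTCA (6.75%) were in none of the 5 windows. CGTCA, the core that TGACGTCA contains, stood at -174 in Kctd12 and at -47 in Cck (17.8%), each time inside the run GCGTCAGC, which 0.664% of all windows hold. That run was picked out after the sequences had been seen, and CATGCAAA was the other of 2 runs of 8 bases that Kctd12 and Cck shared on the same strand (1.15%). The first Mpped2 window shared runs of like length with both genes. On the same strand these were CGCTCCTCC, 9 bases, with Kctd12 and AGTGCCCC, 8 bases, with Cck. On opposite strands they were GGGGCGGGG, 9 bases, with Kctd12 and TGGAGGGACC, 10 bases, with Cck. Kctd12 and Cck themselves shared GGGAGGAGC, 9 bases, on opposite strands. These matches are letters in a window, and binding was not measured.

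Kctd12 had a level of 56.4 RPKM in WT PCs and 0.0766 RPKM in Kai1-/- PCs. The gene lay near the top of the WT library, where 6.92% of all symbols were higher, and in the lower part of the Kai1-/- library, where 61.4% were higher. The ratio of the levels was 736-fold lower in the Kai1-/- library, with a 95% interval from 420.5 to 1423. That interval covers counting error only, and makes no allowance for PCR copies or for differences between animals and cultures. On the log2(RPKM + 0.1) scale, which understates changes of low genes, the ratio of Kai1-/- to WT was -8.32. The deposited values carry no read counts, but the depth could be estimated from the spacing of low values, and with the 6057 bases of the RefSeq gene it gave about 9743 reads in WT and 12.0 in Kai1-/-. Kctd12 thus rested on few reads in the Kai1-/- library, and its level there had a counting interval from 0.0397 to 0.134 RPKM.

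Cck had the highest level of the 3 genes, with 948 RPKM in WT PCs and 7.36 RPKM in Kai1-/- PCs. It was the gene of rank 148 in the WT library and of rank 5512 in the Kai1-/- library, and its share of all RPKM was 0.107% in WT. The ratio was 129-fold lower (counting interval 105.6 to 159.8), a log2 ratio of -6.99. In contrast to Kctd12, Cck stayed well above 0 in Kai1-/- PCs, with about 95.25 reads against 13562 in WT, and its interval there was 5.94 to 8.97 RPKM.

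Mpped2 had a level of 0.264 RPKM in WT PCs and 9.83 RPKM in Kai1-/- PCs. It went the other way from Kctd12 and Cck, from a level below that of 58.6% of the symbols to one below that of 23.6%. The ratio was 37.2-fold higher (counting interval 23.7 to 59.5) and the log2 ratio 4.77, with about 20.6 reads in WT and 695 in Kai1-/-. Its mean of 5.04 RPKM stood just inside the minimum of 5. The genes nearest to that minimum were Acvrl1 inside, with a mean of 5.003 RPKM and a log2 ratio of -2.28, and Apmap outside, with 4.998 RPKM and 0.51.

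The targeted gene itself changed less than these 3. Cd82 had 12.8 RPKM in WT and 2.62 RPKM in Kai1-/- PCs, 4.89-fold lower (counting interval 3.99 to 6.01), so its transcript was lower and still present. At the 0.1 RPKM scale its log2 ratio was -2.25, and 50 genes with a mean of at least 5 RPKM had a lower one.

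**Figure D1:**
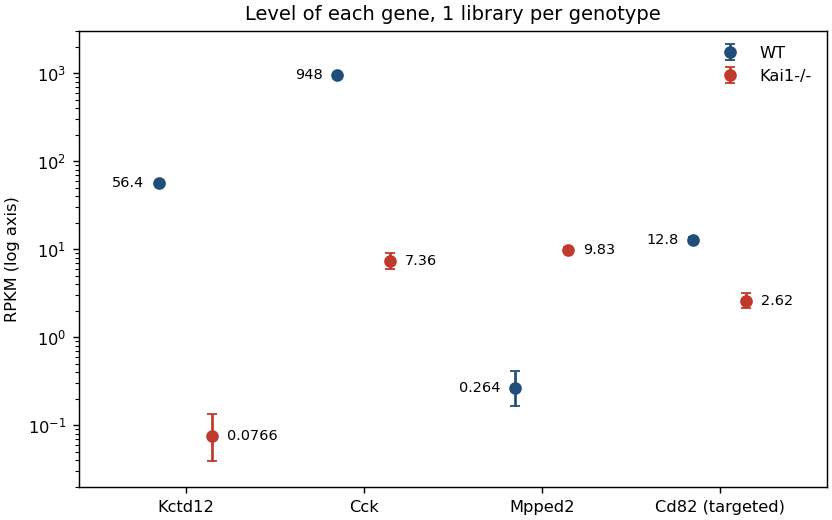
Level of Kctd12, Cck, Mpped2 and the targeted gene Cd82 in the WT and the Kai1-/- library, in RPKM on a log axis; bars are 95% counting intervals from estimated reads and there are no replicates. Kctd12 went from 56.4 to 0.0766, Cck from 948 to 7.36 and Mpped2 from 0.264 to 9.83 RPKM.

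On chromosomes, the genes lie apart from each other. Kctd12 is on the minus strand at chr14:103377437-103381745, where the GENCODE annotation of NCBI37 gives 1 transcript of 2 exons and 3805 bases and calls the gene a pseudogene, while the RefSeq table lists it as protein coding with 1 curated transcript. With the shorter GENCODE length, its estimated reads would be 5997 in WT and 7.38 in Kai1-/-. Cck is on the minus strand at chr9:121398943-121404807, with 2 transcripts, the first of 3 exons and 685 bases, 345 of them coding. Mpped2 is on the plus strand at chr2:106533426-106708513, with 6 transcripts over 175 kb, the longest of 7 exons and 2848 bases, 882 of them coding. The longest transcript of Cck and of Mpped2 and the 4.309 kb GENCODE locus of Kctd12 were searched in the genome by blastn at an E-value of 1e-10. None had a second match, so no near-identical copy of these bases was seen. The rest of the 6057 bases of the RefSeq gene of Kctd12 was not searched.

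Set beside all genes, the 3 stood at the ends of the distribution, as their choice required. Of the 6518 genes with a mean of at least 5 RPKM, 4 (0.0614%) were more than 32-fold lower on the log2(RPKM + 0.1) scale, namely Kctd12, Lce1h, Cck and Lce1g. On the same scale 1 gene (0.0153%) was more than 32-fold higher, the chemokine gene Cxcl14, and Mpped2 followed it. More than 16-fold, the counts were 10 lower (0.153%) and 6 higher (0.0921%).

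Their levels were uncommon too, by cuts placed near the values that chose them, so that these counts are a description. Of 1529 genes with at least 50 RPKM in WT, 2 were below 1 RPKM in Kai1-/-, Kctd12 and Lce1g. Of 242 genes with at least 500 RPKM in WT, 4 were more than 4-fold lower, Cck, Myl9, Nupr1 and Thbs1. Of 4983 genes with at least 9 RPKM in Kai1-/-, 4 were below 1 RPKM in WT, Mpped2, Cxcl14, Hist2h2bb and Ppl.

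The genes with the most similar log2 ratios over the 2 libraries were of other kinds. Next to Kctd12 and Cck stood Lce1h and Lce1g, which encode late cornified envelope proteins of the epidermis. Lce1g had 90.2 RPKM in WT and 0.728 RPKM in Kai1-/-, and Lce1h had 15.8 RPKM in WT and was listed at 0 in Kai1-/-, at least 71.3-fold lower with a floor of 3 reads. The Lce1 genes are a family of close copies, so their reads could be split between members. The remaining gene of the 5 lowest ratios was Dhrs3, a retinal reductase gene, with 40.9 RPKM in WT and 1.21 RPKM in Kai1-/-.

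Around Mpped2 stood Cxcl14, with 0.416 RPKM in WT and 20.3 RPKM in Kai1-/-, and Ppl, the gene of the plakin periplakin, with 0.616 and 18.3 RPKM. The histone H4 genes Hist1h4d, with 2.54 and 46.3 RPKM, and Hist1h4f, with 1.25 and 23.4 RPKM, completed the 5 highest ratios, and reads of such nearly alike histone genes could be split between them. Below the minimum of 5 RPKM, larger ratios than that of Mpped2 existed too. Ndnf, for a neuron-derived secreted factor, had 0.0753 RPKM in WT and 7.32 RPKM in Kai1-/-, a log2 ratio of 5.40 at a mean of 3.70 RPKM. On the low side Chchd10, a mitochondrial protein gene, missed the minimum with a mean of 4.97 RPKM, from 9.78 RPKM in WT to 0.151 RPKM in Kai1-/-.

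**Figure D2:**
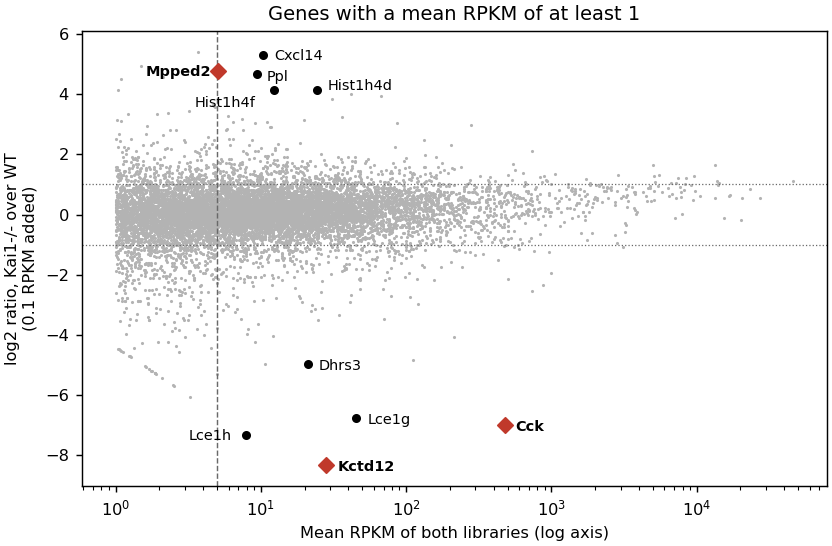
Log2 ratio of Kai1-/- to WT with 0.1 RPKM added against the mean RPKM of both libraries on a log axis, for the 10068 genes with a mean of at least 1 RPKM (grey); dotted lines mark 2-fold and the dashed line a mean of 5 RPKM. Kctd12 (-8.32) and Cck (-6.99) lie at the bottom and Mpped2 (4.77) at the top, just right of the dashed line.

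Kctd12 acts on GABA-B receptors, and the receptor was not complete at the transcript level. Gabbr1, the subunit that binds the ligand, had 4.19 RPKM in WT and 3.20 RPKM in Kai1-/- PCs, a log2 ratio of -0.38. Gabbr2, the subunit that couples to G proteins and carries the KCTD binding site, was listed at 0 in both libraries. The related auxiliary subunits Kctd8 and Kctd16 were also at 0 in both, and Kctd12b had 0.00735 RPKM in WT and less than 1 read in Kai1-/-. Kctd12 was therefore the one auxiliary subunit of the receptor with a level above 0.01 RPKM, and it was so in WT and Kai1-/- PCs alike.

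The wider KCTD family and the receptor's effectors were compared with the background of all genes. Of the 10068 genes with a mean of at least 1 RPKM, 786 (7.81%) were lower in the Kai1-/- library by more than 2-fold, 803 (7.98%) were higher by as much, and the median log2 ratio was 0.08. With the upper quartiles of the libraries made equal the counts were 1231 and 417 and the median -0.19, and with Gapdh made equal 1815 and 249 and -0.42. Gapdh itself had 4238 RPKM in WT and 5997 RPKM in Kai1-/-. Relative to the median of all genes, the ratio of Kctd12 was -8.40 as deposited and -8.10 under Gapdh, that of Cck -7.07 both times, and that of Mpped2 4.69 both times. Taking off that median cancels most of a scaling by construction, so this agreement is no check of the ratios.

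Of 17 other genes of the KCTD family and its ubiquitin ligase partner Cul3 with a mean of at least 1 RPKM, 1 was more than 2-fold lower. Of the rest, 0 were higher and 16 lay within 2-fold, and the median log2 ratio of the 17 was -0.13. For all genes the shares were 7.81% lower and 7.98% higher. Kctd1, a transcriptional regulator, was the lower one, with 2.32 RPKM in WT and 1.05 RPKM in Kai1-/-. Its close relative Kctd15 had 20.3 and 11.3 RPKM, a log2 ratio of -0.84. Kctd17, the family member with the highest level, had 112 RPKM in WT and 110.3 RPKM in Kai1-/-. The largest ratios in the family were far from that of Kctd12, which was itself chosen for its ratio.

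Of 14 GABA-B effector genes with a mean of at least 1 RPKM, 2 were more than 2-fold lower, against 7.81% of all genes. The other 12 lay within 2-fold, and the median of the 14 was -0.08. The lower ones were Gnai1, an inhibitory G protein alpha subunit, with 1.83 and 0.400 RPKM, and Gng12, a gamma subunit, with 28.0 and 13.3 RPKM. Gnai2, the inhibitory alpha subunit with the highest level, had 307 RPKM in WT and 264 RPKM in Kai1-/-. Kcnj3 and Kcnj5, which encode subunits of potassium channels opened through G proteins, were at 0 in both libraries. Kcnj6 and Kcnj9 of the same list had 0.0157 and 0.0330 RPKM in WT and were at 0 in Kai1-/-.

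The receptors and the sister hormone of cholecystokinin were close to 0 in both libraries. Cckbr, the receptor that also binds gastrin, had 0.0148 RPKM in WT and 0.197 RPKM in Kai1-/-. Cckar, the receptor of gallbladder and pancreas, had less than 1 read in both, and Gast, the gastrin gene, was listed at 0 in both. None of these genes reached 1 RPKM in either library, whereas Cck itself had 948 RPKM in WT.

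The enzymes that turn the precursor into active peptide were set beside all genes, since Cck itself was chosen for its ratio. Of 15 with a mean of at least 1 RPKM, 1 was more than 2-fold lower, 0 were higher and 14 lay within 2-fold. For all genes the shares were 7.81% lower and 7.98% higher, and the median log2 ratio of the 15 was -0.01. Cpe, the carboxypeptidase that trims the cut peptides, had 479 RPKM in WT and 476 RPKM in Kai1-/-. Tpst2, a tyrosine sulfotransferase, had 43.6 and 44.1 RPKM, and Pam, the amidating enzyme, had 17.9 and 10.6 RPKM. The lower gene was Ctsl, a protease of lysosomes and secretory vesicles, with 159.8 and 73.7 RPKM.

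The neuroendocrine convertases were nearly missing at the same time. Pcsk1 had 0.0729 RPKM in WT and was listed at 0 in Kai1-/-, and Pcsk2 was at 0 in both. Furin, the convertase found in most cells, had 12.8 RPKM in WT and 8.82 RPKM in Kai1-/-. Of the 20 proteins of the regulated secretory granule, 11 were below 0.1 RPKM in both libraries, among them Chga, Chgb and Scg2.

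Of the 6 granule genes with a mean of at least 1 RPKM, 1 was more than 2-fold lower and 1 higher. The shares of all genes were 7.81% and 7.98%. The median log2 ratio of the 6 was 0.04. It became -0.04 when the median of all genes was set to 0 and -0.23 with equal upper quartiles. Under Gapdh only 5 genes kept that mean, so their median of -0.83 is over another set. Of these 5, 2 were lower and 0 higher, against 1815 and 249 of 9796 genes. Syt11, a synaptotagmin gene, had 2.29 RPKM in WT and 1.09 RPKM in Kai1-/-, and Vgf, a secreted granule peptide precursor, had 3.07 and 7.68 RPKM. Rab3a, a vesicle GTPase gene, had 13.7 and 10.8 RPKM.

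**Figure D3:**
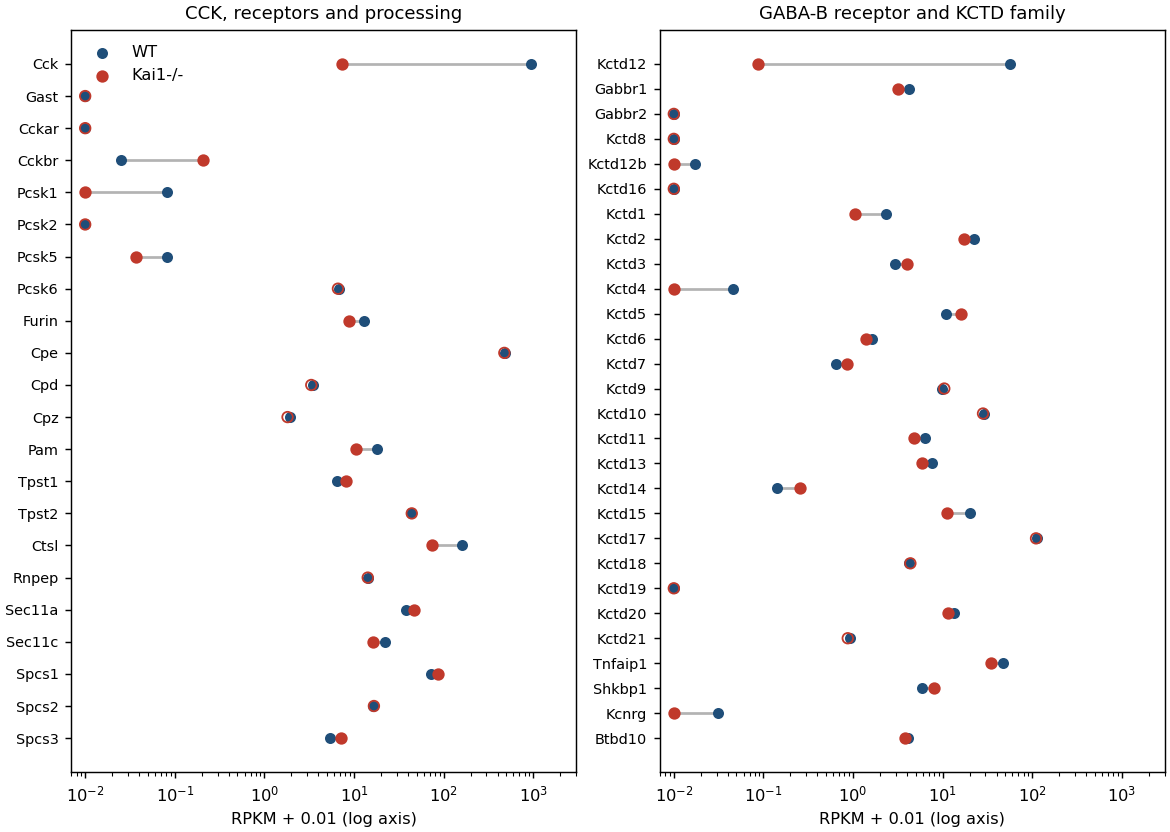
RPKM plus 0.01 on a log axis in the WT (blue) and the Kai1-/- (red) library for Cck with its sister hormone, receptors and processing enzymes (left) and for Kctd12 with the GABA-B receptor subunits and the KCTD family (right); each point is 1 library, open red circles mark nearly equal values, and genes at 0 sit at 0.01. The bars of Cck and Kctd12 are long, whereas Cpe (479 and 476 RPKM) and Kctd17 (112 and 110.3 RPKM) overlap.

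Other secreted peptides moved in both directions. Of 57 other peptide hormone and neuropeptide genes in the tables, 27 were at 0 in both libraries and 16 had a mean of at least 1 RPKM. Of these 16, 4 were more than 2-fold lower and 5 higher, against 7.81% and 7.98% of all genes, and the median log2 ratio was 0.18. With equal upper quartiles 14 genes kept that mean, with a median of -0.10. Under Gapdh 13 did, with a median of -0.44. No other gene of this list came near the 948 RPKM of Cck, since the highest had 28.8 RPKM in WT and 35.4 RPKM in Kai1-/-.

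The lower ones included vasoactive peptides. Adm, for the vasodilator adrenomedullin, had 28.8 RPKM in WT and 8.82 RPKM in Kai1-/-, and its relative Adm2 had 8.81 and 0.311 RPKM. Edn1, for the vasoconstrictor endothelin 1, had 5.01 and 0.751 RPKM, and Penk, for the enkephalin precursor, had 4.97 and 0.557 RPKM. These 4 genes had log2 ratios from -4.44 to -1.70.

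The 5 higher ones were led by Igf1, a growth factor gene, with 3.95 RPKM in WT and 35.4 RPKM in Kai1-/-, a log2 ratio of 3.13. Npb and Npw, which encode ligands of the same pair of receptors, had 1.37 and 6.81 RPKM and 0.335 and 1.95 RPKM, a log2 ratio of 2.24 each. Pmch, for the melanin-concentrating hormone precursor, had 0.371 and 1.99 RPKM, and Nppa, for atrial natriuretic peptide, had 0.593 and 2.03 RPKM.

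The closest relative of Mpped2 was not measured above 0, since Mpped1 was listed at 0 in both libraries. Of 9 other metallophosphoesterase genes with a mean of at least 1 RPKM, 1 was more than 2-fold lower, 1 higher and 7 within 2-fold. In the background of all genes 7.81% were lower and 7.98% higher. The median log2 ratio of the 9 was 0.37, which became -0.13 under Gapdh, where that of all genes was -0.42. The 2 that differed were a related pair of acid sphingomyelinase-like enzymes. Smpdl3a had 3.57 RPKM in WT and was listed at 0 in Kai1-/-, at least 55.9-fold lower with a floor of 3 reads, and Smpdl3b had 1.31 and 7.01 RPKM. Smpd1, the lysosomal acid sphingomyelinase, had 44.7 and 38.9 RPKM.

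Classical cyclic nucleotide phosphodiesterases were looked up because Mpped2 can act on cyclic nucleotides. Of 13 with a mean of at least 1 RPKM, 3 were more than 2-fold lower and 1 higher, with a median log2 ratio of -0.23. Among all genes with that mean, 7.81% were lower and 7.98% higher by as much. Pde1b had 2.07 RPKM in WT and 0.258 RPKM in Kai1-/-, Pde3a had 1.97 and 0.691 RPKM, and Pde6h had 4.18 RPKM in WT and was at 0 in Kai1-/-. The higher one was Pde5a, which cleaves cGMP in smooth muscle, with 0.737 and 2.93 RPKM.

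Genes of cAMP signalling to the nucleus were listed because Cck is a known target of CREB in neurons. Of the 24 genes listed, 18 had a mean of at least 1 RPKM, and all 18 lay within 2-fold, with a median log2 ratio of -0.17. Of all genes with that mean, 15.8% were past 2-fold in either direction. Under Gapdh 3 of the 18 were more than 2-fold lower, against 1815 of 9796 genes. Below that minimum, Creb1 had 0.871 RPKM in WT and 0.818 RPKM in Kai1-/-, and Nr4a3, an early response gene, had 0.221 RPKM in WT and was at 0 in Kai1-/-. The CREB coactivator Crtc2 had 11.5 and 11.8 RPKM. Nr4a1, a relative of Nr4a3, had 6.05 and 3.88 RPKM, and Prkacb, a catalytic subunit of protein kinase A, had the lowest ratio of the 18, -0.94.

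**Figure D4:**
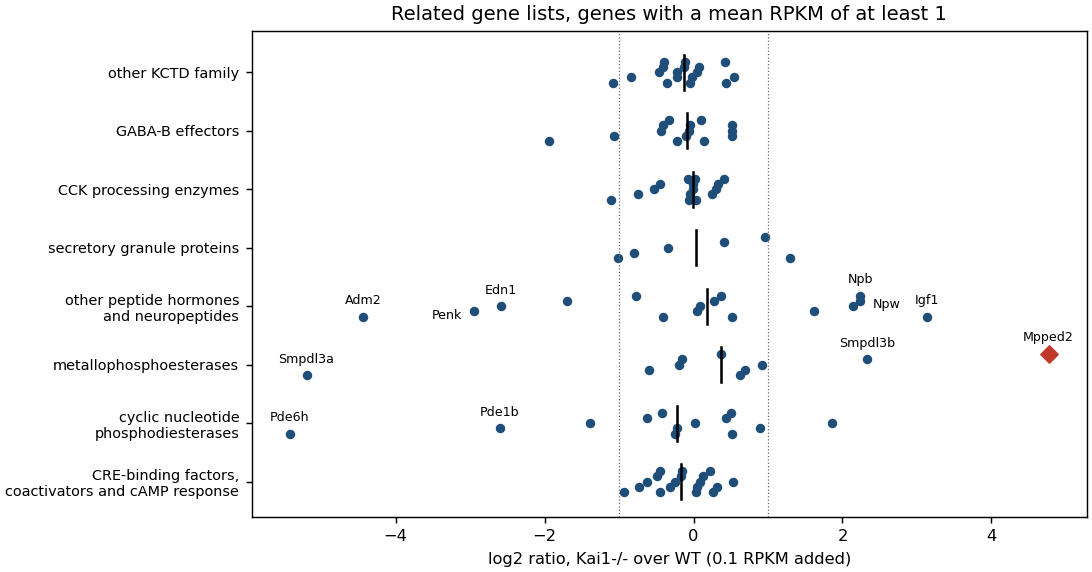
Log2 ratio of Kai1-/- to WT with 0.1 RPKM added for each gene with a mean of at least 1 RPKM in 8 lists related to the 3 genes (points, 1 gene each), with the median of each list (black line), 2-fold marked by dotted lines and Mpped2 as a diamond. Most points lie within 2-fold. The medians of the granule list (0.04 as deposited), the peptide hormone list (0.18) and the metallophosphoesterase list (0.37) turned below 0 under another scaling. Scaling moved all genes alike, with a median of -0.19 for all genes with equal upper quartiles and -0.42 under Gapdh.

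The genes beside each of the 3 on the chromosome had ratios closer to 0, while the 3 were chosen for ratios far from 0. The nearest to Kctd12, Irg1, 64.45 kb away, was listed at 0 in both libraries. The nearest on the other side, Lmo7, had 0.646 RPKM in WT and 0.285 RPKM in Kai1-/-. Uchl3 was more than 2-fold higher, with 15.5 and 35.0 RPKM, while Commd6 had 41.7 and 45.5 RPKM. Within 10 genes on either side, 12 had a mean of at least 1 RPKM, 0 were more than 2-fold lower and 3 were higher, Uchl3, Mzt1 at a log2 ratio of 1.52 and Rnf219 at 1.21, against 7.98% of all genes.

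Cck lies between Trak1, 14.9 kb away, and Lyzl4. Trak1, a motor adaptor gene, had 6.83 RPKM in WT and 5.32 RPKM in Kai1-/-, and Lyzl4 had 0.0425 RPKM and 0. The next genes were Ulk4 with 0.226 and 0.193 RPKM and Ctnnb1 with 87.8 and 96.0 RPKM on the one side, and Vipr1 with 0 and 0.0716 RPKM and Sec22c with 1.12 and 1.52 RPKM on the other. Within 10 genes on either side, 11 had a mean of at least 1 RPKM and all 11 lay within 2-fold, with log2 ratios from -0.36 to 0.99. Of all genes with that mean, 15.8% were past 2-fold in either direction.

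Mpped2 is flanked by Dnajc24, 689.7 kb away, and Fshb. Dnajc24 had 2.40 RPKM in WT and 8.43 RPKM in Kai1-/-, a log2 ratio of 1.77. Beyond it stood Immp1l with 5.56 and 10.4 RPKM and Elp4 with 1.12 and 1.19 RPKM. On the other side Fshb was at 0 in both, Kcna4 had 0.0509 and 0.242 RPKM, and Mettl15 had 0.520 and 0.642 RPKM. Within 10 genes on either side, 10 had a mean of at least 1 RPKM, with a median log2 ratio of 0.56. Of these 10, 0 were more than 2-fold lower and 2 were higher, against 7.98% of all genes. The higher ones were Dnajc24 and Kif18a, both at 1.77. Fibin, below that mean, had 1.27 RPKM in WT and 0.0601 RPKM in Kai1-/-.

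Mpped2 shares chromosome 2 with the targeted gene. Cd82 ends 13.2 Mb before the start of Mpped2, with 50 measured genes between them, 30 of which had a mean of at least 1 RPKM. Of these 30, 1 (3.33%) was more than 2-fold lower and 1 (3.33%) higher, against 7.81% and 7.98% of all genes. Their median log2 ratio was 0.12. The lower one was Cd59a, for an inhibitor of complement, at -1.23, and the higher one was Dnajc24.

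**Figure D5:**
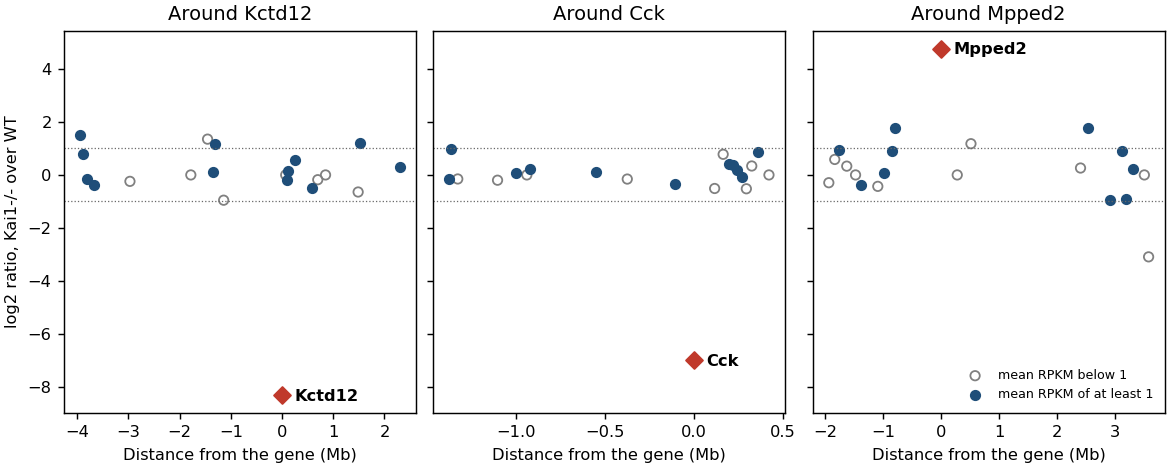
Log2 ratio of Kai1-/- to WT for the 10 measured genes on either side of Kctd12, Cck and Mpped2 (diamonds) against the distance from the gene in Mb; filled points have a mean of at least 1 RPKM and open points less. The filled points lie between -0.49 and 1.52 around Kctd12, between -0.36 and 0.99 around Cck and between -0.95 and 1.77 around Mpped2, and the lowest open point is Fibin at -3.09, whereas the 3 genes lie at -8.32, -6.99 and 4.77.

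The labelled cell type was checked with marker genes, and these differed between the libraries as well. Of 7 contractile and mural markers with a mean of at least 1 RPKM, 4 were more than 2-fold lower, against 7.81% of all genes. The summed level of the 9 listed was 4645 RPKM in WT and 2977 RPKM in Kai1-/-, with none at 0. Acta2 had 3823 and 2580 RPKM, Pdgfrb 44.7 and 31.6 RPKM and Cspg4, which encodes NG2, 15.4 and 8.27 RPKM, so these mural markers were present in both. The 4 lower ones were Tagln with 633 and 307 RPKM, Cnn1 with 119.6 and 49.2 RPKM, Myh11 with 2.96 and 0.346 RPKM and Mcam with 4.90 and 0.264 RPKM. Des, with 1.23 and 0.250 RPKM, and Rgs5, with 0.0630 and 0.233 RPKM, had less than 1 RPKM on average. Rgs5 was the only one of the 9 that was higher in Kai1-/-, at a log2 ratio of 1.03. Fibroblast markers were present as well. Of 5 with a mean of at least 1 RPKM, 2 were more than 2-fold lower, against 7.81% of all genes. They were Pdgfra with 2.01 and 0.854 RPKM and Dpt with 3.06 and 0.783 RPKM. The median log2 ratio of the 5 was -0.79. The 6 listed summed to 1264 RPKM in WT and 924 RPKM in Kai1-/-, with Lum at 0 in Kai1-/-. In bulk RNA, fewer cells of a type and less RNA per cell cannot be told apart. The 7 endothelial markers summed to 0.994 RPKM in WT, and all 7 were listed at 0 in Kai1-/-.

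Cells that could carry Cck or Kctd12 were looked for in the same way. The 10 neuronal markers summed to 47.7 RPKM in WT and 74.0 RPKM in Kai1-/-, and Tubb3, which had 43.4 and 70.5 RPKM, made up most of it. The defining neuronal genes Rbfox3, Syt1 and Elavl4 were at 0 in both. Stmn2 had 3.41 RPKM in WT and was at 0 in Kai1-/-, and Gap43 had 0.830 and 3.23 RPKM.

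The 6 Schwann and glial markers summed to 14.0 RPKM in WT and 3.26 RPKM in Kai1-/-, nearly all from S100b. The 6 macrophage markers summed to 13.0 and 3.13 RPKM, most of it from Csf1r, with Emr1 at 0 in both. Kit, Ano1 and Etv1, markers of the interstitial cells of Cajal, had 0.870, 0.538 and 0.414 RPKM in WT and 0.203, 3.30 and 0.0938 RPKM in Kai1-/-. The 6 keratinocyte markers all stayed below 1 RPKM, with a sum of 1.38 RPKM in WT and 0.988 RPKM in Kai1-/-, and Krt5 at 0 in both. Among them Ivl had 0.960 RPKM in WT and was at 0 in Kai1-/-, whereas Krt14 had 0.0695 and 0.641 RPKM. Whether these cells have a part in the 3 ratios was not tested.

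Sex-linked genes also separated the libraries. Ddx3y had 6.56 RPKM in WT, Eif2s3y 3.17 RPKM, Kdm5d 0.941 RPKM and Uty 0.479 RPKM, and all 4 were listed at 0 in Kai1-/- PCs. The sex of the cells and the genotype cannot be told apart here for Kctd12, Cck or Mpped2. The 2 libraries also differed in their sum of RPKM, 884463 in WT and 1238193 in Kai1-/-, and in the number of symbols at 0, which was 5690 and 6902, at estimated depths of 29500000 and 26700000 reads.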

How the data were processed

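RNA of cultured aortic PCs was sequenced, 1 WT and 1 Kai1-/- library. Alignment by the authors was to mm9 with TopHat2 2.0.9 and Bowtie, and the deposited values are RPKM, 1 per gene and library. Cufflinks is named in the submitters' processing notes. Depth and library type are not given in the sources used here.

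In the deposited tables, 38 rows had no symbol and were dropped, and rows of the same symbol were averaged. The log2 ratio added 0.1 RPKM to each value. Counts of genes used a mean of at least 1 RPKM, or 5 RPKM where stated. No p-value was computed. Depth was estimated from low values in 5816 genes with 1 transcript of over 800 bases in GENCODE M1 on NCBI37. Of these low values, 80.9% in WT and 78.5% in Kai1-/- lay within 0.15 of a whole read. The fit was also run on simulated data. These were drawn with the length model that the fit assumes, so that run cannot show whether the model holds for the deposited values. Intervals are exact binomial for ratios and exact Poisson for levels. Reads used the longest transcript, except for Kctd12 the RefSeq gene and for Cck the transcript of 685 bases, and are approximate. With its longer transcript of 798 bases, Cck would have 16721.5 reads in WT and 117.4 in Kai1-/-.

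The 3 genes and the 19 gene lists were chosen with earlier results of these data known. Named genes were the 3 genes, their partners and neighbours, the 5 largest ratios each way, members past 2-fold of the lists related to the 3 genes, Cd82, Gapdh and Y-linked genes. Some neighbours are not reported here. Further genes named for their level or their role were chosen after their values were seen. Alternatives were other pseudocounts, scalings, filters and the highest row of a repeated symbol. Python 3.11.15, pandas 2.3.3, scipy 1.17.1, pysam 0.24.0 and blastn 2.17.0 were used.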

Additional observations from a re-analysis of the deposited data

How the results depend on the processing

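Of 24 recomputed log2 ratios of Kctd12, Cck, Mpped2 and Cd82, 18 moved by less than their counting interval, 6 moved further, and none changed sign. The 18 include the ratios from the highest row of a repeated symbol, which equalled those from averaged rows for each gene and are no check. With 1 RPKM added, the log2 ratio was -5.74 for Kctd12, 3.10 for Mpped2 and -1.93 for Cd82, and 0 genes were more than 32-fold higher. With 0.01 RPKM added it was -9.35 for Kctd12, and 2 genes were more than 32-fold higher. With equal upper quartiles, the counts past 2-fold were 1231 lower and 417 higher. With equal Gapdh, it was -7.48 for Cck and -2.73 for Cd82, 1815 genes were lower and 249 higher, and 7 were more than 32-fold lower and 0 higher. Without a filter these counts were 1878 and 1205, and at a mean of at least 5 RPKM they were 350 and 511, and the cause of the changed balance was not tested. Of 22 recomputed counts, 10 stayed within 1.5 times their value as deposited. The shifts with added RPKM and with scaling follow from their construction. No paired analysis was possible because the study has 1 library of either genotype. Depth limits Kctd12 in the Kai1-/- library, with about 12.0 reads, and Mpped2 in the WT library, with about 20.6 reads.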
